A study of Drosophila melanogaster with 9 samples.

Results

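The comparison described here set whole guts of flies given 10% glucose against whole guts of flies given agar, a gel without nutrient. It asks which genes of the gut differ between flies fed glucose alone and flies fed no nutrient. It used 6 of the 9 libraries of the study, chosen by their diet label: 3 labelled glucose and 3 labelled agar, with the 3 libraries from standard medium kept in the same fit and shown for reference. All flies were adult females of Drosophila melanogaster Oregon R, a common laboratory wild type, and every diet had 3 biological repeats numbered 1 to 3. The labels give no transgene, age or length of feeding. Messenger RNA was measured by stranded sequencing as RPKM, a read number scaled to transcript length and to the size of the library. Same-numbered libraries of different diets were treated as pairs. Differences are glucose minus agar on the log2(RPKM + 1) scale, and folds on that scale understate the change of genes at low levels.

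The adult fly midgut secretes glycosidases, lipases and proteases, takes up the products through membrane transporters, and carries a large set of enzymes that modify foreign compounds. Sugar is known to lower the expression of its carbohydrate-digesting enzymes, a response called glucose repression, and the activin branch of TGF-β signalling, whose ligand is daw, has been tied to sugar sensing in this tissue. Without food an animal can draw on stored fat and amino acids. The genes of those routes, of nutrient sensing and of ribosome production were examined beside the digestive enzymes. These lists were chosen with earlier results of these data known.

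Library totals recovered from the values were 34899709 to 43477728 reads on agar and glucose and 43851820 to 48389188 reads on standard medium. Of 10245 genes in the files, 8036 reached 1 RPKM in at least 3 of the 9 libraries and were tested. Midgut identity genes were present in every library, with a summed level of 421, 468 and 446 RPKM on agar and 429, 411 and 446 RPKM on glucose, and 0 of the 8 were called (0 also at an unadjusted p under 0.05). Of the marker lists for muscle, fat body, Malpighian tubule, neuron, ovary and haemocyte, 0 members of 31 tested were called, and 1, in the fat body list, had an unadjusted p under 0.05, as did 15.9% of all genes tested. The summed levels of all 6 lists overlapped between the diets, with 589 to 723 RPKM on agar and 525 to 751 on glucose for muscle and 265 to 379 and 338 to 393 for fat body. Of the 5 haemocyte and 7 neuron markers in the files, 4 in each list stayed under 1 RPKM in all 9 libraries. In whole tissue, fewer cells of a type and less RNA per cell cannot be told apart.

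More genes were lower on glucose than were higher. With Benjamini-Hochberg adjustment over all 8036 genes, limma called 191 genes (2.38%), of which 51 were higher on glucose (0.635%) and 140 lower (1.74%). Counts of called members in the gene lists below are read against these shares. The falls were also the larger changes: 55 of the 140 were at least 2-fold and 15 at least 4-fold, against 7 and 0 of the 51 rises. The median called fall was -0.85 and the median called rise 0.64, while the median over all genes tested was -0.02. In the diet where each stood higher, 36 of the 140 falls reached a mean of 100 RPKM on agar and 3 of the 51 rises on glucose. The same share over all genes tested is not given here.

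**Figure D1:**
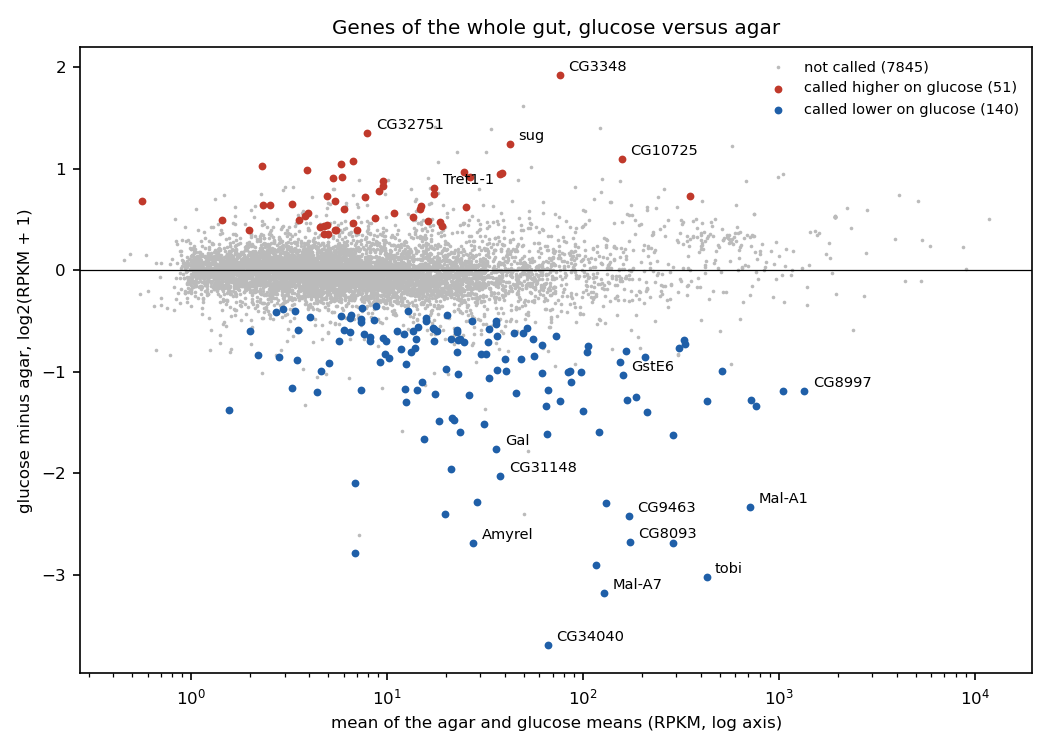
Difference between glucose and agar on the log2(RPKM + 1) scale (vertical axis) against the mean of both diets' mean levels (horizontal log axis) for the 8036 genes tested. Red points are the 51 genes called higher and blue points the 140 called lower; the falls reach -3.69 and include abundant genes such as tobi and Mal-A1, and the rises end at 1.92 with CG3348.

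The number of calls depended on the pairing and on single libraries. Without the repeat number as a block 23 genes were called (3 higher, 20 lower). It was 7 without agar replicate 2, 7 without glucose replicate 2, 5 without glucose replicate 3, 33 without glucose replicate 1 and 48 without agar replicate 3. Without repeat 2 or repeat 3 in all diets limma called 0, with 615 and 1105 genes at an unadjusted p under 0.05. After quantile normalization the split of calls was 71 higher and 117 lower.

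Amylases and maltases, the enzymes that cut starch and its products to glucose, formed the group with the deepest falls. Of 13 tested members 9 were called lower on glucose and 0 higher, all 13 differences were below 0, and the median was -1.39. The maltase-like gene tobi, known as a target of brain insulin, stood at 328, 1082 and 909 RPKM in agar repeats 1, 2 and 3 and at 86.5, 84.9 and 79.4 RPKM on glucose. The glucose libraries lay close together, and even the lowest agar library, repeat 1, was far above them. The difference was -3.02 (SE 0.50, adjusted p = 0.0316), 8.12-fold lower on glucose. Mal-A1, a maltase and the most abundant of the 9, stood at 583, 1621 and 1420 RPKM on agar and 175, 209 and 286 RPKM on glucose (-2.33, SE 0.31, adjusted p = 0.017). Again agar repeat 1 was the lowest of its diet and the diets did not overlap.

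Of the called maltase genes 7 formed a pair of runs of neighbours. Neighbours, here and below, are next to each other among tested genes in the order of the RefSeq Release 6 table. Genes that were not tested can lie between them. Mal-A1, Mal-A2, Mal-A3 and Mal-A4 are neighbours on chromosome arm 2R, and Mal-A6, Mal-A7 and Mal-A8 are a second run of called genes on the same arm. The second run changed by -2.69, -3.18 and -2.90, and Mal-A2, Mal-A3 and Mal-A4 of the first by -1.39, -1.34 and -1.21. The maltase genes Mal-A5 (-0.24, adjusted p = 0.235) and Mal-B2 (-0.31, adjusted p = 0.379) were not called, and Mal-B1 was under the filter and not tested. Whether the runs differ was not tested, and the sources used here do not say how reads of similar copies were shared among them. Amyrel, an amylase-related gene, fell from 21.3, 57.0 and 69.2 RPKM to 7.06, 5.08 and 5.90 RPKM (-2.69, SE 0.35, adjusted p = 0.017).

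The classical amylases were not called, and their levels differed between repeats. Amy-p stood at 1470, 1362 and 394 RPKM on agar and 783, 956 and 617 RPKM on glucose. It was lower on glucose in pairs 1 and 2 and higher in pair 3, so the groups overlapped. Its difference of -0.26 (95% interval -1.12 to 0.61, adjusted p = 0.798) did not pass, and it turned to 0.04 without agar replicate 2 and 0.07 without glucose replicate 1. Amy-d stood at 913, 935 and 428 RPKM on agar and 512, 573 and 460 RPKM on glucose (-0.48, interval -1.06 to 0.11, adjusted p = 0.41). In both genes agar repeat 3 was the low library of its diet.

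Among the other glycosidases 6 of 17 tested were called lower and 0 higher, with a median of -0.30. Gal, a β-galactosidase with the smallest SE of the 6 called, stood at 49.5, 64.0 and 56.1 RPKM on agar and 14.2, 17.7 and 15.9 RPKM on glucose. The lowest agar library was far above the highest glucose library. The difference was -1.76 (SE 0.10, adjusted p = 0.00313). Of the 24 alternative settings, 22 kept the call of Gal. Other calls were less stable, with 15 for Mal-A1, 6 for sug and 5 for Hex-C, genes named above or below. No gene was called in all 24. CG9463, CG9465, CG9466 and CG9468, α-mannosidase genes that are neighbours on 2L and are now named LManIII to LManVI, all fell. CG9463 went from 155, 193 and 528 RPKM to 23.6, 54.4 and 75.4 RPKM (-2.42, SE 0.22, adjusted p = 0.0123). Repeat 3 was the highest library in both diets for this gene. CG9468, the most abundant of the 4, went from 809, 852 and 1403 RPKM to 309, 424 and 512 RPKM (-1.28, SE 0.14, adjusted p = 0.015).

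CG31148, now Gba1a, encodes a glucocerebrosidase, which removes glucose from a sphingolipid, and is also counted in the list of sphingolipid breakdown. It stood at 45.9, 53.6 and 86.0 RPKM on agar and 13.6, 12.4 and 16.0 RPKM on glucose. No glucose library came near an agar library, and the difference was -2.03 (SE 0.13, adjusted p = 0.00313). Of 6 tested genes of sphingolipid breakdown 3 were called lower and 0 higher, with a median of -0.40. The other two were CG15533, a sphingomyelinase-like gene (-1.18, adjusted p = 0.017), and CDase, the neutral ceramidase (-0.65, adjusted p = 0.0335). CG15533 was far lower still on standard medium, at 3.83, 2.67 and 4.59 RPKM against 32.7, 30.8 and 56.6 RPKM on glucose. CG15534, the most abundant of the 6, went the other way and was not called. Its difference was 0.35 (adjusted p = 0.172), and it was higher on glucose in 3 of 3 pairs.

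**Figure D2:**
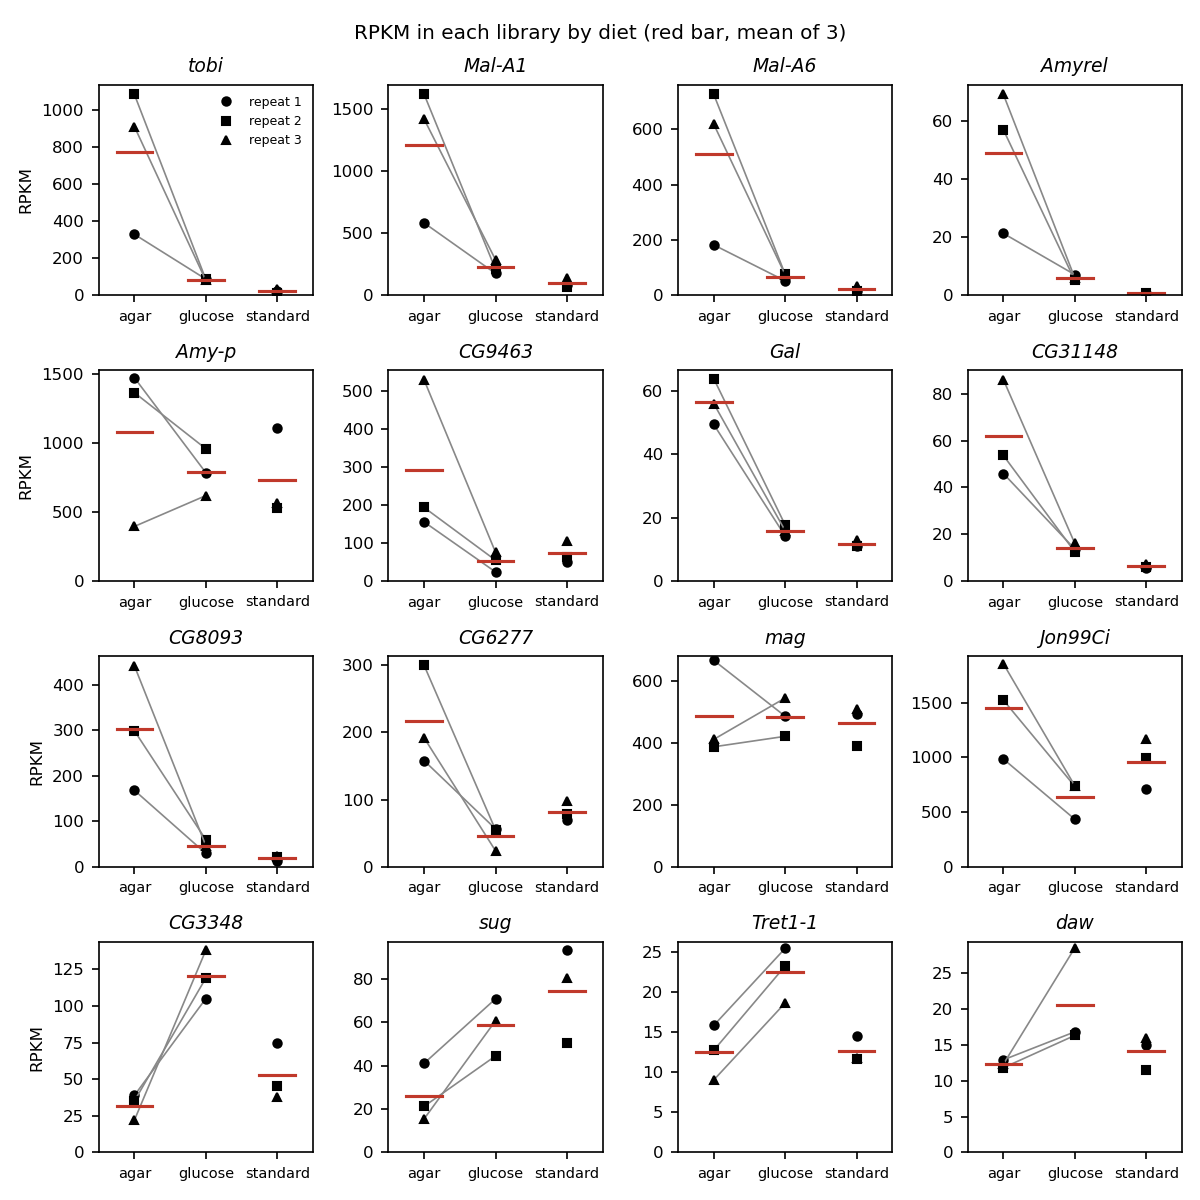
RPKM of 16 genes in each of the 9 libraries by diet, on linear axes from 0. Symbols mark repeats 1 to 3, grey lines join agar and glucose libraries of the same number, and red bars are means of 3. The carbohydrate enzymes tobi, Mal-A1, Mal-A6, Amyrel, CG9463 and Gal separate the diets without overlap, Amy-p and mag cross between repeats, and daw is raised most in repeat 3.

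Fat-digesting enzymes fell in part. Of 7 tested acid lipases, which split fats at low pH, 4 were called lower and 0 higher, with a median of -0.57. CG8093 stood at 168, 299 and 442 RPKM on agar and 29.1, 59.3 and 46.2 RPKM on glucose. Its lowest agar library was above every glucose library, and the difference was -2.68 (SE 0.18, adjusted p = 0.00313). CG31091 (-1.96), Lip3 (-1.38) and CG2772 (-0.57) were the other 3 called, at adjusted p of 0.017, 0.0434 and 0.0415. Of the 3 not called, mag, the most abundant of the 7, stood at 668, 388 and 412 RPKM on agar and 487, 422 and 546 RPKM on glucose. Its difference was 0.02 (95% interval -0.40 to 0.44, adjusted p = 0.971), with a sign that changed between settings. CG31089, a neighbour of CG31091 on 3R and not in the list, fell from 2.74, 5.81 and 31.4 RPKM to 0.159, 0.529 and 0.451 RPKM (-2.78, SE 0.50, adjusted p = 0.0406). Its agar level was set largely by repeat 3.

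Of 12 neutral lipases of the pancreatic type 3 were called lower, 0 higher, and the median of -0.11 was near that of all genes. At an unadjusted p under 0.05, 2 were higher and 4 lower. The 3 called were the neighbours CG6283, CG6277 and CG6271 on 3R. CG6277 went from 158, 300 and 192 RPKM to 56.3, 54.9 and 23.7 RPKM (-2.29, SE 0.33, adjusted p = 0.0226), and CG6271 changed by -2.28 and CG6283 by -1.28. These genes stood higher on standard medium than on glucose, with 69.2, 78.2 and 97.2 RPKM for CG6277. The 2 higher at an unadjusted p under 0.05 were CG17192 (0.64, adjusted p = 0.225) and CG6296 (0.53, adjusted p = 0.062). In both the diets did not overlap. CG6295, the most abundant of the 12, had a difference of 0.38 (adjusted p = 0.359).

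Protein-digesting enzymes are read against the 2.38% of all genes that were called and the 1277 of 8036 (15.9%) with an unadjusted p under 0.05. Of 17 tested Jonah serine proteases 1 was called lower and 0 higher, 7 had an unadjusted p under 0.05 (5 higher and 2 lower), and the median was 0.27. The 1 called, Jon99Ci, stood at 985, 1524 and 1857 RPKM on agar and 434, 735 and 740 RPKM on glucose, lower within every pair (-1.19, SE 0.12, adjusted p = 0.0147). Of 15 trypsins 0 were called, and 5 had an unadjusted p under 0.05, 3 of them higher and 2 lower. The trypsin gene alphaTry, at a mean of 8150 RPKM on agar and 9230 RPKM on glucose, had a difference of 0.23 (adjusted p = 0.623) that was -0.18 after quantile normalization. None of 19 secreted metallopeptidases (7 at an unadjusted p under 0.05) and none of 10 lysozymes (1) was called.

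**Figure D3:**
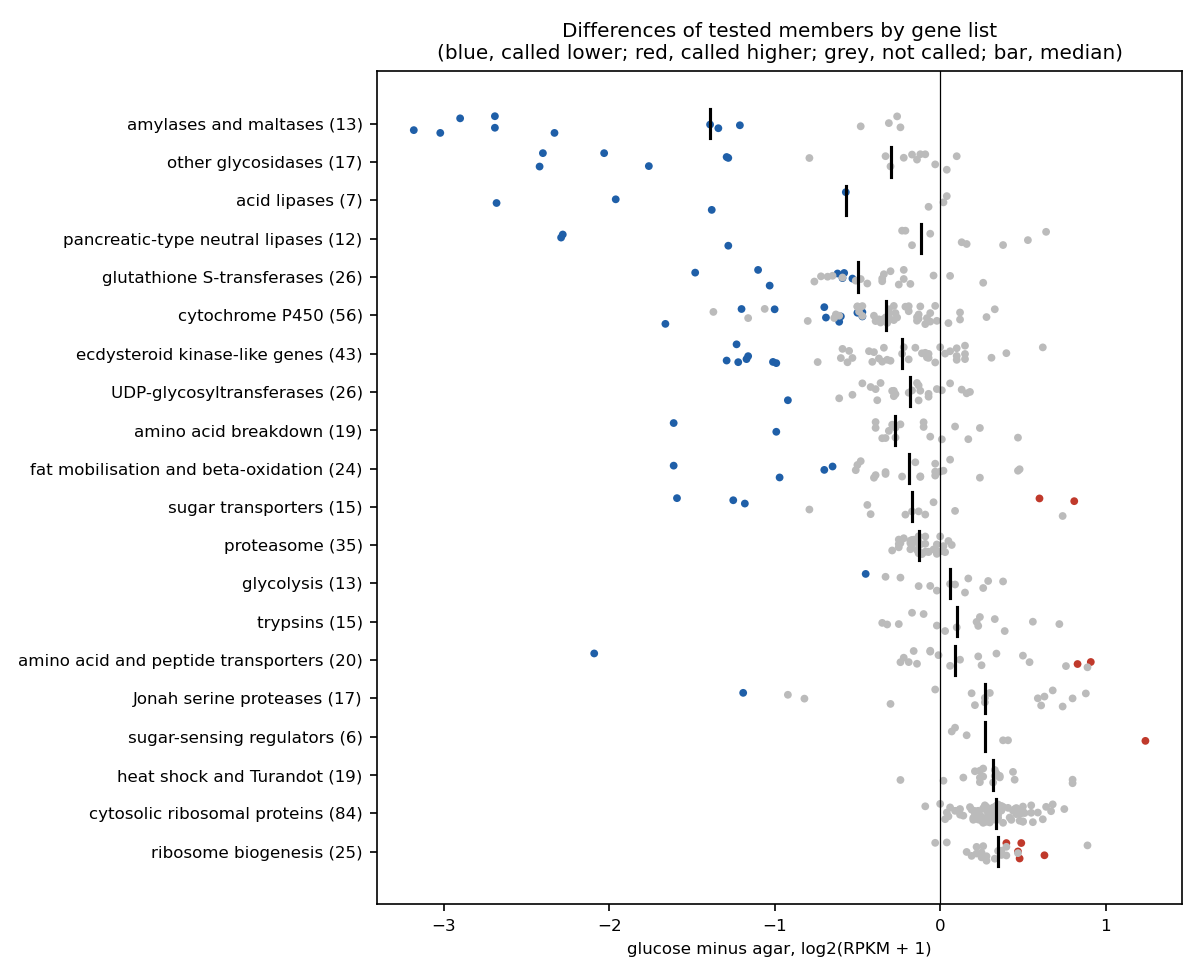
Glucose minus agar on the log2(RPKM + 1) scale for the tested members of 20 gene lists, with the number tested in brackets. Blue points were called lower, red points higher and grey points not called, and black bars are list medians; the median runs from -1.39 for amylases and maltases to 0.35 for ribosome biogenesis, while that of all 8036 genes is -0.02.

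Among enzymes that modify foreign and internal lipophilic compounds, members of the cytochrome P450 and glutathione S-transferase families were called lower on glucose. Of 56 tested cytochrome P450 genes, whose products oxidise such compounds, 10 were called lower and 0 higher, against 1.74% and 0.635% of all genes. Of their differences 51 were below 0, and the median was -0.33. Cyp309a1 stood at 14.6, 24.9 and 33.5 RPKM on agar and 6.59, 5.56 and 7.84 RPKM on glucose (-1.66, SE 0.18, adjusted p = 0.0147). Cyp6g1, known for its part in insecticide resistance, stood at 99.0, 124 and 172 RPKM on agar and 55.3, 59.2 and 79.1 RPKM on glucose (1.99-fold lower, SE 0.14 on the log2 scale, adjusted p = 0.0175). In both genes every agar library was above every glucose library. Cyp4s3 fell by 1.20 and Cyp4d2 by 0.70. The other 6 called, Cyp4e2, Cyp4d8, Cyp4p2, Cyp4ae1, Cyp9c1 and Cyp6d2, lay between -0.69 and -0.47.

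Of 26 glutathione S-transferases, which couple glutathione to reactive compounds, 7 were called lower and 0 higher, 24 differences were below 0, and the median was -0.50. GstE6, an abundant member, stood at 159, 201 and 290 RPKM on agar and 92.2, 101 and 116 RPKM on glucose (-1.03, SE 0.13, adjusted p = 0.017). GstD10 went from 19.0, 22.3 and 42.6 RPKM to 8.66, 7.77 and 10.1 RPKM (-1.48, SE 0.16, adjusted p = 0.0147). In both genes agar repeat 3 was the highest library. GstE9 changed by -1.10, and GstO2, GstS1, GstT3 and GstE5 lay between -0.62 and -0.53. Of 26 UDP-glycosyltransferases, which attach sugars to such compounds, 1 was called lower (Ugt37b1, -0.92, adjusted p = 0.0158). Among all genes tested 1.74% were called lower, so 1 call in 26 is not read as a result about this family.

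A family of kinase-like genes, named for a silkworm enzyme that phosphorylates ecdysteroids, was added to the lists after its values were seen. Of 43 tested 7 were called lower and 0 higher, with a median of -0.23. Among all genes 1.74% were called lower and 0.635% higher. Since the family was picked by its values, its calls beside these shares are no test of the family. CG31104 stood at 60.5, 105 and 165 RPKM on agar and 32.8, 34.9 and 59.8 RPKM on glucose. Its glucose repeat 3 lay just under agar repeat 1, and the difference was -1.29 (SE 0.18, adjusted p = 0.0183). CG11889, CG11891 and CG11878 form a run of neighbours on 3R and changed by -1.17, -1.22 and -1.01. The remaining 3 were CG6908 (-1.23), CG10559 (-1.16) and CG31300 (-0.99).

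**Figure D4:**
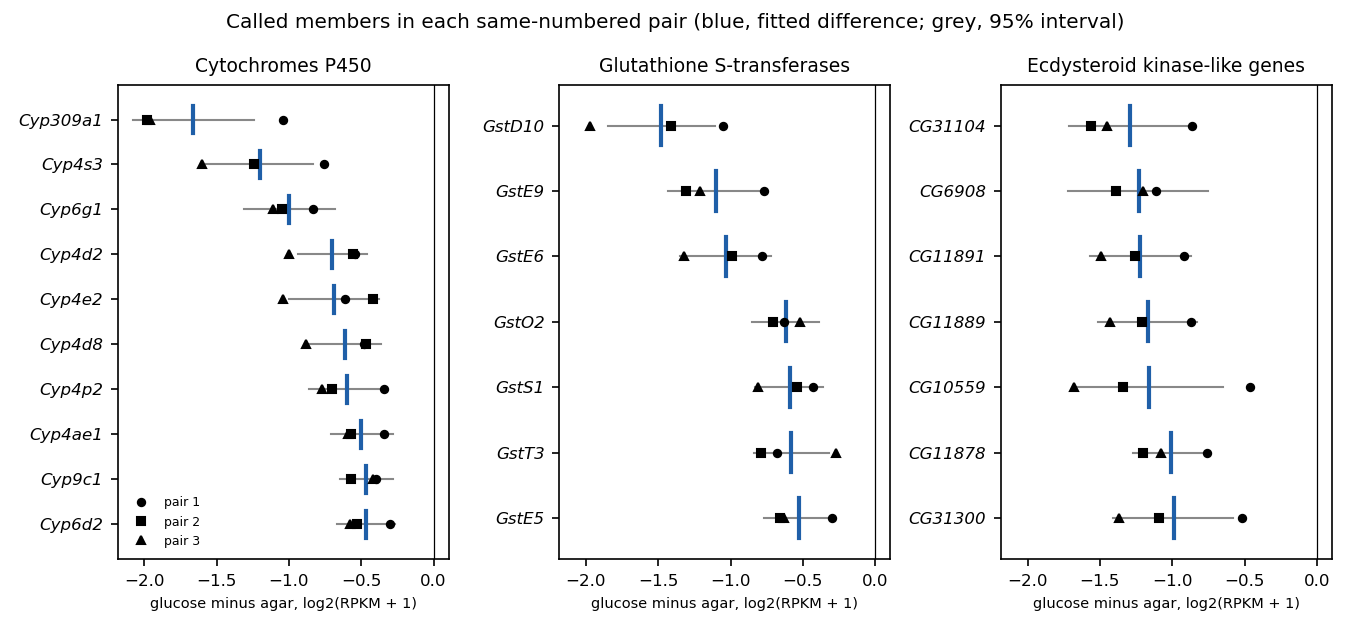
Glucose minus agar on the log2(RPKM + 1) scale for the 10 cytochromes P450, 7 glutathione S-transferases and 7 ecdysteroid kinase-like genes that were called. Black symbols are the same-numbered pairs 1 to 3, blue bars the fitted difference and grey lines its 95% interval. Each pair of each gene lies below 0, as in all 140 genes called lower. Members that were not called are not shown.

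Genes that break down fat and amino acids were partly lower on glucose. Among all genes tested 1.74% were called lower. Of 24 genes of fat mobilisation and β-oxidation 4 were called lower and 0 higher, with a median of -0.19. CG3902, a short-chain acyl-CoA dehydrogenase gene also counted under amino acid breakdown, stood at 77.5, 104 and 119 RPKM on agar and 32.9, 33.5 and 29.0 RPKM on glucose. The lowest agar library was far above the highest glucose library, and the difference was -1.61 (SE 0.18, adjusted p = 0.015). The thiolase gene yip2 changed by -0.65 (adjusted p = 0.0224). Of 19 genes of amino acid breakdown 2 were called lower and 0 higher, with a median of -0.27. The second was CG15093, a 3-hydroxyisobutyrate dehydrogenase gene of valine breakdown, which went from 57.1, 53.5 and 52.2 RPKM to 33.4, 25.9 and 22.3 RPKM (-0.99, SE 0.14, adjusted p = 0.0226).

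Several other metabolic genes were named after their values were seen. Both enzymes that take the transmitter GABA to succinate were called lower: CG7433, now Gabat, the GABA transaminase, and Ssadh, the succinate semialdehyde dehydrogenase (-0.57, adjusted p = 0.0355). CG7433 stood at 6.34, 6.51 and 6.62 RPKM on agar and 2.80, 2.79 and 2.71 RPKM on glucose, with little spread within either diet (-0.99, SE 0.11, adjusted p = 0.0147). On standard medium it was higher than on agar, at 7.93, 8.67 and 11.5 RPKM. Cat, the catalase of peroxisomes, stood at 130, 133 and 137 RPKM on agar and 73.5, 71.0 and 84.0 RPKM on glucose (-0.80, SE 0.10, adjusted p = 0.017). In a list of 21 peroxisomal genes added in the same way, 3 were called lower and 0 higher, with a median of -0.18, and Cat and CG18003 (-0.41, now Hao) were among them. Men-b, a malic enzyme gene, changed by -1.51 and Idh, an isocitrate dehydrogenase gene, by -0.76 (adjusted p = 0.0292 for both). Galk, the galactokinase, changed by -0.68 (adjusted p = 0.017).

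Genes of central sugar metabolism and its regulators were called in both directions, and their counts are read against the 2.38% called among all genes. Of 13 glycolysis genes 1 was called, Hex-C, a hexokinase gene (-0.45, adjusted p = 0.0434), and the list median was 0.06. None of 12 fatty acid synthesis genes was called (3 at an unadjusted p under 0.05). The fatty acid synthase gene CG3523, with a mean of 16.5 RPKM on agar and 26.7 RPKM on glucose, had a difference of 0.60 (adjusted p = 0.134), with no overlap between the diets. Of 14 genes of gluconeogenesis and FOXO targets, fbp, the fructose-1,6-bisphosphatase, was called lower (-0.40, adjusted p = 0.0409) and ImpL2, a secreted insulin antagonist, higher. ImpL2 stood at 8.78, 7.74 and 9.11 RPKM on agar and 12.8, 12.6 and 13.9 RPKM on glucose, without overlap (0.57, SE 0.10, adjusted p = 0.0364). Thor, the translation inhibitor 4E-BP, had a difference of 0.36 (95% interval -0.19 to 0.90, adjusted p = 0.506). Of 18 genes of the insulin and TOR pathway 1 was called, Pdk1, the kinase upstream of Akt, which was higher on glucose (0.62, adjusted p = 0.0303).

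Some transporter genes were called in each direction. Among all genes tested 0.635% were called higher and 1.74% lower. Of 15 sugar transporter genes 2 were called higher and 3 lower. At an unadjusted p under 0.05, 3 were higher and 7 lower (66.7%, against 15.9% of all genes). Tret1-1, a trehalose transporter, stood at 15.8, 12.7 and 9.01 RPKM on agar and 25.4, 23.2 and 18.6 RPKM on glucose. Repeat 3 was the lowest library in both diets, yet the diets did not overlap (0.81, SE 0.11, adjusted p = 0.0175). CG14606 was the other one called higher (0.60, adjusted p = 0.047). CG1208 went from 16.8, 44.1 and 48.4 RPKM to 6.98, 11.8 and 13.1 RPKM (-1.59, SE 0.17, adjusted p = 0.0147), CG6484 changed by -1.25 and CG10960, now nebu, by -1.18. Of 20 amino acid and peptide transporters 2 were called higher and 1 lower. At an unadjusted p under 0.05, 8 were higher and 1 lower (45%, against 15.9% of all genes). The fall was CG1139, now acs, at 3.58, 12.8 and 20.2 RPKM on agar and 1.48, 1.54 and 1.74 RPKM on glucose (-2.09, SE 0.38, adjusted p = 0.0409). The rises were gb, a glutamate exchanger gene (0.91, adjusted p = 0.017), and CG4991 (0.83, adjusted p = 0.0395).

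Of the 6 tested sugar-sensing regulators 1 was called, sug, a zinc finger transcription factor induced by sugar. It stood at 41.0, 21.2 and 15.4 RPKM on agar, 70.7, 44.4 and 60.6 RPKM on glucose and 93.1, 50.3 and 80.2 RPKM on standard medium. Every glucose library was above every agar library, although glucose repeat 2 was only just above agar repeat 1 (1.24, SE 0.24, adjusted p = 0.0472). All 6 regulators had differences above 0, with a median of 0.27. In the activin branch 0 of 7 tested genes were called and 1, daw, had an unadjusted p under 0.05. The ligand gene daw stood at 12.9, 11.8 and 12.3 RPKM on agar and 16.8, 16.3 and 28.5 RPKM on glucose. The diets did not overlap, repeat 3 gave the largest gap, and the difference of 0.65 (95% interval 0.27 to 1.02, adjusted p = 0.0968) did not pass. The receptor genes babo and put had differences of -0.18 and 0.07 and Smox, the activin-branch Smad, one of 0.01, with adjusted p of 0.465, 0.743 and 0.962.

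Genes for ribosome production were the list with the most rises. Of 25 tested 5 were called higher and 0 lower, 24 differences were above 0, and the median was 0.35. Nopp140, a nucleolar protein gene, stood at 6.37, 5.38 and 4.75 RPKM on agar and 8.58, 8.36 and 7.01 RPKM on glucose, without overlap (0.47, SE 0.07, adjusted p = 0.0226). Nop60B, the pseudouridine synthase of guide RNA complexes, stood at 18.4, 17.0 and 11 RPKM on agar and 25.1, 23.3 and 16.7 RPKM on glucose. Repeat 3 was the lowest library in both diets, so the groups overlapped while each pair rose (0.48, SE 0.08, adjusted p = 0.0314). The small nucleolar complex genes nop5 (0.49) and hoip (0.63) and the small-subunit processing gene bys (0.40) were the others, each higher on glucose in 3 of 3 pairs.

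The cytosolic ribosomal proteins themselves gave no call in 84 genes, with 1 at an unadjusted p under 0.05, although 82 differences were above 0 and the median was 0.34. The median differed between pairs, at 0.00, 0.18 and 0.83 in pairs 1, 2 and 3, and without repeat 3 in all diets it was 0.10. Of 19 heat shock and Turandot genes 0 were called (3 at an unadjusted p under 0.05), with a median of 0.32, pair medians of -0.03, 0.37 and 0.55, and a median of 0.15 without repeat 3 in all diets. None of 35 proteasome genes was called (6 at an unadjusted p under 0.05, or 17.1% against 15.9% of all genes, all lower), with a median of -0.13. None of 67 respiratory chain genes (1) and none of 20 vacuolar H+-ATPase genes (0) was called.

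The largest rise was that of CG3348, at 38.9, 35.1 and 22.0 RPKM on agar, 105, 119 and 138 RPKM on glucose and 74.8, 45.5 and 37.8 RPKM on standard medium. Its glucose level was above that of both other diets in every repeat, and the difference from agar was 1.92 (SE 0.25, adjusted p = 0.017), 3.77-fold. CG10725, more abundant, stood at 134, 90.3 and 79.3 RPKM on agar and 248, 200 and 193 RPKM on glucose (1.10, SE 0.13, adjusted p = 0.0164). CG32751 (1.35) and vanin-like (0.97), neighbours on the X chromosome, both rose, at adjusted p of 0.0312 and 0.0355. A run of 3 neighbours on 3L, CG5157, CG5151 and CG32152, rose by 0.65, 1.08 and 1.05. CG10182 (0.96), CG8026 (0.95), CG2765 (0.92), Obp56d (0.88), CG31704 (0.78), CG17570 (0.75) and CG43673 (0.73) complete the 15 largest rises among genes of at least 10 RPKM with the genes already named.

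CG31324, now Cipc after a vertebrate protein that binds CLOCK, had the smallest p among the rises. It stood at 2.97, 2.22 and 1.60 RPKM on agar and 7.33, 5.39 and 3.92 RPKM on glucose. The level was highest in repeat 1 and lowest in repeat 3 in both diets, and within each pair it more than doubled in RPKM (0.99, SE 0.07, adjusted p = 0.00313). Socs36E, a feedback inhibitor of JAK/STAT signalling, rose from 4.12, 3.35 and 2.97 RPKM to 6.64, 6.51 and 5.97 RPKM (0.73, SE 0.12, adjusted p = 0.0323). Named after their values were seen, the neuropeptide gene CG13936 (CNMa), the hormone-responsive factor Kr-h1 and the hindgut transcription factor byn were also called higher, by 1.03, 0.68 and 0.36. CG13936 stood at 0.635, 1.49 and 1.26 RPKM on agar, 2.14, 5.19 and 3.06 RPKM on glucose and 0.619, 0.662 and 0.493 RPKM on standard medium, highest on glucose in every repeat. Of 11 genes for enteroendocrine peptides 0 were called, and 0 had an unadjusted p under 0.05.

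The deepest fall was that of CG34040, at 19.3, 138 and 221 RPKM on agar and 4.86, 3.74 and 9.51 RPKM on glucose. Agar repeat 1 was far below the other two but above each glucose library (-3.69, SE 0.67, adjusted p = 0.0395). Its neighbours on 2R, CG4363 and CG4377, changed by -1.62 and -1.40. A run of 4 abundant neighbours on 2L, CG8997, CG7916, CG7953 and CG7968, changed by -1.19, -1.34, -0.99 and -0.85. CG8997, the most abundant gene called, stood at 1503, 2072 and 2070 RPKM on agar and 718, 852 and 890 RPKM on glucose (SE 0.14, adjusted p = 0.0158).

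**Figure D5:**
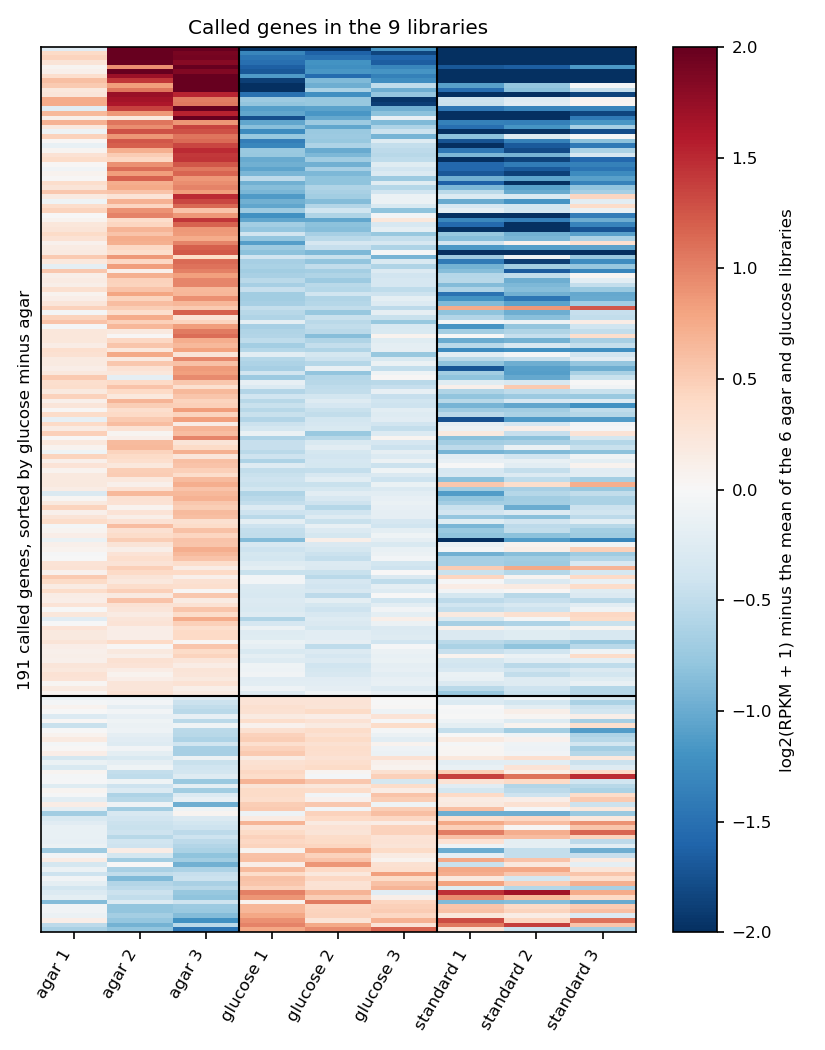
The 191 called genes (rows, sorted by difference, 140 lower above the line and 51 higher below it) in the 9 libraries (columns), as log2(RPKM + 1) minus the mean of the 6 agar and glucose libraries. Red is above and blue below that mean, with colours ending at 2 and -2; agar repeat 1 is paler than agar repeats 2 and 3 in the genes with the deepest falls.

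Every called gene had the same sign in 3 of 3 pairs, as did 15.3% (higher) and 22.8% (lower) of all genes tested. The diets did not overlap in 36 of the 51 rises and 133 of the 140 falls, against 5.01% and 10.5% of all genes tested. The calls were made from these same libraries and pairs. Both shares therefore follow largely from the calling and give it no separate support. Where standard medium lay was described from mean levels after median-ratio scaling, since as deposited 80.9% of all genes stood lowest on standard medium. After scaling, the standard mean was between the agar and glucose means for 46.4% of the genes called lower, below both for 45.0% and above both for 8.57%, against 24.2%, 38.5% and 37.2% of all genes. For the genes called higher, it was between for 43.1%, below both for 7.84% and above both for 49.0%. A wide gap between agar and glucose makes a place between them more likely, and these shares were not tested.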

How the data were processed

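Whole guts were sequenced in 9 libraries, 3 per diet. Per the labels' protocols, RNA was taken with Trizol and the kit was TruSeq Stranded mRNA. Per the submitters' processing notes, CASAVA 1.82, Bowtie2 2.1 and limma were used. Genome build, annotation and strand use in counting: not given in the sources used here. Values as the authors deposited them were log2 RPKM, 1 per gene and library. RPKM was computed as 2 to the power of the value, and library totals were solved from the values of genes with 1 transcript using BDGP6.54 lengths. The 9 values of 190 genes equalled those of another gene, and none of these was called.

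Genes reaching 1 RPKM in 3 or more libraries were fitted on log2(RPKM + 1) in limma 3.58.1 (R 4.3.3), with diet means over all 9 libraries, the repeat number as a block and empirical Bayes moderation with a variance trend (4 residual and 3.19 prior degrees of freedom). P-values were adjusted by Benjamini-Hochberg over 8036 genes and called under 0.05. The repeat number was set as the pairing block in the design of this comparison. The residuals of same-numbered libraries correlated at 0.17 to 0.59 over 9 pairs of libraries. Those of other numbers in different diets correlated at -0.53 to 0.29 over 18. Over all diets these ranges overlap. Between glucose and agar alone, same-numbered libraries gave 0.47 to 0.59 over 3 pairs of libraries and other numbers -0.49 to 0.15 over 6. The pairing was not tested. The p-values measure how far the differences between diets varied among same-numbered sets of the 9 libraries. The spread between repeat numbers that the diets share is taken out by the block and is not part of them.

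Symbols and neighbours came from RefSeq's Release 6 table: 7878 names were current, 2216 older and 151 unmatched. Neighbours were taken among the 7913 tested genes with a position. The gene lists and the named genes were chosen with earlier results of these data known. The rule named the 15 largest called rises and falls of at least 10 RPKM, the 3 called genes with the smallest p per list, and 13 genes of interest; other members of lists or of runs of neighbours, and genes so marked, were named after their values were seen. Some genes that the rule names are not reported here. On simulated data for this comparison (8036 genes, 200 changed) 79% of 2-fold and 95% of 4-fold changes were called, with 10 unchanged genes. These rates describe the simulated data only. Calls in the libraries themselves changed with single libraries and with the block, as given above. Tables used pandas 2.3.3 (Python 3.11.15) and figures Matplotlib 3.10.9.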

Additional observations from a re-analysis of the deposited data

How the results depend on the processing

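The number of genes called (191, with 51 higher and 140 lower) depended most on the replicate block and on single libraries. With no replicate block it was 23 (3 and 20), and with no replicate block and the 6 compared libraries alone 2 (0 and 2); with the block those 6 gave 133 (33 and 100). Library weights, whose estimation did not fully converge, gave 566 (187 and 379). Leaving out 1 library in turn gave 5 to 177 in all, 1 to 43 higher and 4 to 134 lower; beside the libraries named above, leaving out standard replicate 2 gave 107 and standard replicate 3 gave 111. Leaving out 1 repeat number in all diets, chosen after seeing the data as was the fit of the deposited log2 values (180), gave 0 to 118 in all, 0 to 32 higher and 0 to 86 lower. Pseudocounts of 0.1 and 5, no filter, a filter of 5 RPKM, median-ratio scaling, quantile normalization and no variance trend gave 146 to 236. With no replicate block 1 of 13 amylases and maltases, 1 of 56 cytochromes P450, 0 of 26 glutathione S-transferases and 0 of 25 ribosome biogenesis genes were called, with list medians as reported. Without repeat 2 in all diets these medians were -1.24, -0.31, -0.47 and 0.33, and without repeat 3 -1.43, -0.29, -0.45 and 0.30, with 0 calls in each list. Over the alternatives, values of 124 single genes stayed on the same side of the threshold 1764 times, lost the call 1165 times and gained it 18 times. Values near 0 changed sign 17 times. Leaving out 1 library in turn gave Amy-p -0.72 to 0.07, mag -0.16 to 0.24 and Smox -0.05 to 0.10. Leaving out 1 repeat number gave them -0.71 to 0.07, -0.17 to 0.26 (-0.02 without repeat 2) and -0.06 to 0.11. For mag the value was -0.06 after quantile normalization and -0.00 with library weights. The value of alphaTry after quantile normalization was -0.18. The cause of these changes was not tested. Depth limits the genes at the lowest levels, where 1 read per kilobase stood for 0.0207 to 0.0287 RPKM.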

Other observations

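Of the genes not called, 24 differed at least 2-fold (9 higher and 15 lower on glucose), and in 10 of them the diets did not overlap. These genes were chosen after their values were seen. Gpo-1, a mitochondrial glycerol-3-phosphate dehydrogenase gene, stood at 10.4, 11.3 and 5.98 RPKM on agar and 19.9, 23.5 and 34.8 RPKM on glucose, with repeat 3 the lowest on agar and the highest on glucose (1.41, SE 0.33, adjusted p = 0.0881 by limma). CG17571, an abundant gene, stood at 606, 394 and 144 RPKM on agar and 792, 816 and 698 RPKM on glucose (1.23, adjusted p = 0.14). The yolk protein gene Yp2 stood at 58.9, 20.4 and 33.6 RPKM on agar and 61.8, 70.3 and 81.7 RPKM on glucose, nearly equal in repeat 1 (1.02, adjusted p = 0.138). Among the falls, CG34316 stood at 3.56, 6.56 and 31.1 RPKM on agar and 0.393, 1.18 and 0.58 RPKM on glucose (-2.61, adjusted p = 0.0517). The cytochrome P450 gene Cyp28d1 stood at 30.4, 48.2 and 60.5 RPKM on agar and 14.4, 18.4 and 17.5 RPKM on glucose (-1.37, adjusted p = 0.0509).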
